A study of Drosophila melanogaster with 8 samples.

Results

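CDK9 regions nearest the starts of long noncoding RNA genes were examined in Kc167 cells. This is a female *Drosophila melanogaster* line with hemocyte character that was derived from embryos. Peaks of 4 CDK9 ChIP-seq libraries were merged wherever they overlapped by 1 bp or more, which gave 5531 regions. A region was kept if its midpoint lay within 1500 bp of a start of a gene named lncRNA (long noncoding RNA) or asRNA (antisense RNA) and lay farther from every protein-coding start. This gave 214 regions, or 3.87% of all regions, at 173 noncoding genes. The roX1 and roX2 genes were left out by rule, and no region was lost by this. The 2 mock libraries came from cells put through transfection without any RNA. The 2 siAGO2 libraries came from cells that received RNA against AGO2, and all cells were collected 3 days after transfection. Each CDK9 library had an input library, and the 4 inputs entered only through the background of the peak caller. The labels number the replicates but do not say whether they were separate cultures, so every p-value measures the spread between these libraries, which may be technical. The knockdown cannot be read from peak lists. Of 9 hemocyte marker genes checked, srp had a peak in all 4 libraries and 5 genes (Hml, NimC1, Ppn, crq and eater) had none. Col4a1 and vkg had a peak in 2 libraries each and Pxn in 1. A CDK9 peak does not measure RNA, so the hemocyte label was not tested by these peaks.

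CDK9 is the kinase of P-TEFb, the complex that releases paused RNA polymerase II (Pol II) into elongation by phosphorylating the polymerase tail and pausing factors. Long noncoding RNAs are transcribed by Pol II and pass through the same early steps as mRNAs. Some lie antisense to a coding gene, some share a divergent promoter with one, and some are the primary transcripts from which microRNAs are cut. AGO2 is the Argonaute protein of the siRNA pathway in flies. The comparison of mock with siAGO2 libraries asks whether its loss changed where CDK9 was bound.

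The libraries differed in depth. The lowest background of a list, which is the mean number of reads over a genome position, was 2.29 and 1.21 reads in the mock lists, and it was 0.814 and 0.864 in the siAGO2 lists. Both siAGO2 libraries were thus shallower, although within mock the shallower library had the longer list (3804 against 3103 peaks). Depth and treatment cannot be told apart wherever the number of called peaks is compared. The siAGO2 lists held 1707 and 2295 peaks. At the 214 regions, the median peak summit held 24, 19, 15 and 14 reads in mock 1, mock 2, siAGO2 1 and siAGO2 2.

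The 5 highest-ranked CDK9 regions nearest noncoding starts lay on arms 2L, 3L, 3R and chromosome X. Among regions called in all 4 libraries, they had the highest mean percentile of −log10 q (the false discovery rate of a peak). The percentile was taken within each list, where 100 is the strongest peak of a list. By the percentile of fold enrichment over local background the order differed. There lncRNA:CR45463 (96.3) and lncRNA:CR45805 (96.1) stood above lncRNA:CR44904 (95.8) and lncRNA:CR45609 (95.6). Summit sequences of the 5 regions are printed because they show the DNA under the strongest sites by −log10 q. Each runs 5′ to 3′ on the strand of the noncoding gene, 50 bases either side of the mock replicate 2 summit in dm6, with GAGAG of either strand (GAGAG or CTCTC) in capitals.
asRNA:CR45804, chr3L:9692693-9692793, plus strand: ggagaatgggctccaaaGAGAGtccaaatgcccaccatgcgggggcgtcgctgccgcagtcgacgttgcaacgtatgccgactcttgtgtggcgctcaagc
lncRNA:CR45565, chr3R:31689362-31689462, minus strand: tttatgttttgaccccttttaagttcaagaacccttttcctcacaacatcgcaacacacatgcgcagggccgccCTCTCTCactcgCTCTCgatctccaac
lncRNA:CR46110, chr3R:29774596-29774696, minus strand: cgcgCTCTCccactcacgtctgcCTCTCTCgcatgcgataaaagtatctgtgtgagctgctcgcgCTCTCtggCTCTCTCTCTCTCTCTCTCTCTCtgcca
lncRNA:CR44904, chr2L:18796185-18796285, minus strand: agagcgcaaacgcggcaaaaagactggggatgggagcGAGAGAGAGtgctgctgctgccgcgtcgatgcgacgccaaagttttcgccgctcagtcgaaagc
lncRNA:CR45609, chrX:18312688-18312788, minus strand: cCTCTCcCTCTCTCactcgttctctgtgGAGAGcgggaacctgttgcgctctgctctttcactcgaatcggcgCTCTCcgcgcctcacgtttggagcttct

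All of these 5 windows held the GAGAG letters, which form the core of the site bound by GAGA factor, a promoter protein linked to paused Pol II. The count of matches, overlapping ones included, was 1 at CR45804, 3 at CR45565, 14 at CR46110, 3 at CR44904 and 5 at CR45609. A match is a description of the letters and not a bound site. No share over all regions was taken for windows of this length. In windows of 300 bp, 69.5% of noncoding and 68.5% of coding regions called in all 4 libraries held the letters. Among all regions the share was 46.0%.

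asRNA:CR45804 is antisense to Prps, which makes the phosphoribosyl pyrophosphate used for nucleotide synthesis. Its region (chr3L:9692237-9693109) had a fold enrichment over local background of 15.6 and 20.8 in mock, against 27.0 and 19.3 in siAGO2. The highest and the second lowest of these values were both siAGO2, so the groups overlapped. The summits lay at -1033 to -1098 bp from the antisense start (negative is upstream), inside a Prps intron, and the nearest Prps start was 1784 bp away from the midpoint.

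lncRNA:CR45565 (chr3R:31688959-31690003) has no protein-coding start nearer than 9601 bp. Its fold was 13.9 and 23.2 in the mock libraries and 16.2 and 18.4 in the siAGO2 libraries, with both siAGO2 values between the mock values. Its summits lay 466 to 553 bp downstream of the start, in an exon of the noncoding gene.

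lncRNA:CR46110 (chr3R:29774344-29775053) is antisense to kay, the fly Fos transcription factor. Its summits lay 376 to 418 bp downstream of the noncoding start. Its fold was 10.3 and 12.9 in mock, against 15.2 and 14.3 in siAGO2. Both siAGO2 values were above both mock values here, while its percentile was 99.1 and 98.8 in mock, against 98.6 and 98.2 in siAGO2, the opposite order.

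lncRNA:CR44904 (chr2L:18795806-18796848) lies 3421 bp from the nearest coding start, that of ham, a zinc finger regulator of neuron identity. Its fold was 9.99 and 18.0 in mock, against 9.01 and 17.7 in siAGO2. Replicates within a group differed far more than the groups did. Its summits lay at -1 to -55 bp from the start.

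lncRNA:CR45609 (chrX:18312395-18313089) is intergenic. Its fold was 7.73 and 16.3 in mock, against 9.63 and 21.9 in siAGO2, and the groups again overlapped. The summits lay at -790 to -838 bp from its start.

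The next 5 regions by the same rule were at lncRNA:CR45805, lncRNA:CR44468, lncRNA:CR45463, lncRNA:CR46090 and asRNA:CR44653. CR45805 is antisense to Pdk1, a kinase of the insulin pathway, and its fold was 11.1, 14.6, 10.1 and 15.3 in mock 1, mock 2, siAGO2 1 and siAGO2 2. CR45463 is antisense to Daxx, a histone chaperone, and its fold was 9.35, 16.2, 14.3 and 10.4 in the same order. Its midpoint was 190 bp from the noncoding start and 191 bp from the Daxx start, so its assignment turned on 1 bp. CR46090 lies inside pnt, an ETS factor of the EGFR pathway, in the same direction, 11584 bp from the nearest pnt start, with a fold of 8.32, 15.4, 8.24 and 12.7. CR44653 is antisense to Mgat1, an enzyme of N-glycan synthesis, with a fold of 8.03, 16.1, 12.9 and 10.5. CR44468 (chr2R:18806017-18806772) had a fold of 8.60, 10.5, 16.2 and 10.3. The 10 regions lay between the mean percentiles of 93.9 and 99.1, and at all of them except CR46110 the fold values of the 2 groups overlapped.

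**Figure D1:**
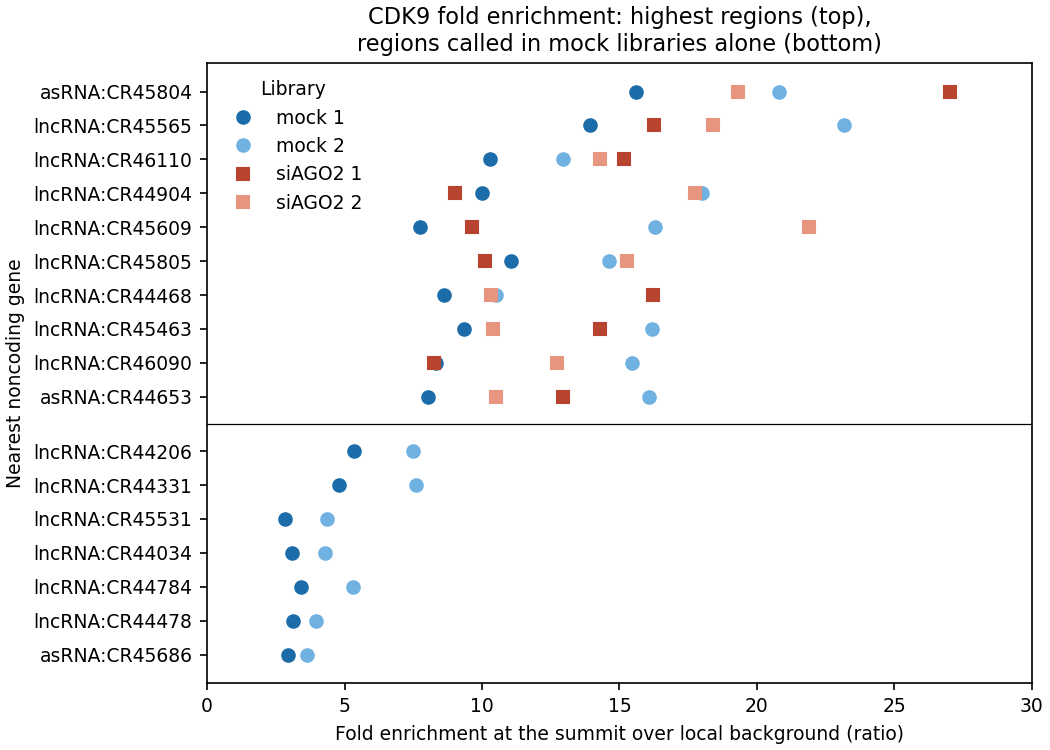
Fold enrichment of CDK9 at the summit over local background (horizontal axis, ratio) in each library, for the 10 regions with the highest mean percentile and, under the line, the 7 mock-only regions. Circles are mock and squares siAGO2 libraries. The upper regions lie between 7.73 and 27.0 and the lower ones between 2.85 and 7.61.

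Most of the 214 regions were weaker. The number called was 123 in mock 1, 161 in mock 2, 93 in siAGO2 1 and 104 in siAGO2 2, or 57.5%, 75.2%, 43.5% and 48.6% of the 214. Among all 5531 regions the called shares were 54.2%, 67.3%, 29.0% and 39.8%. Both siAGO2 values were thus below both mock values at noncoding starts, as over all regions. The mean was 142 ± 26.9 regions (SD, n = 2) in mock and 98.5 ± 7.78 (SD, n = 2) in siAGO2, a ratio of 0.694 (exact permutation test, two-sided, p = 0.333, the smallest p that 2 against 2 libraries allow). With the 1707 strongest peaks of each list, the numbers were 81 and 83 in mock, against 95 and 83 in siAGO2, and the ratio was 1.09 (exact permutation test, p = 0.667). With lists of equal length the direction was thus the opposite one. It rested mainly on siAGO2 1, as siAGO2 2 and mock 2 both had 83.

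Of the 214 regions, 59 had a peak in each of the 4 libraries, 30 had one in 3, 30 in 2 and 95 in 1. The share called in all 4 was 27.6%, beside 18.5% of all 5531 regions. Of 3917 regions nearest a protein-coding start, 796 were called in all 4. Merged regions near noncoding starts were also wider than coding ones, with a median of 300 against 269 bp. A merged region can widen as more libraries add a peak. Within mock 1, mock 2, siAGO2 1 and siAGO2 2, the median peak at noncoding regions was wider by 15, 53, 9 and 8 bp. The part of width in these counts was not tested.

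In each library the share of noncoding regions called was above that of protein-coding regions. The coding shares were 50.1%, 73.7%, 32.1% and 43.3% in mock 1, mock 2, siAGO2 1 and siAGO2 2, and the noncoding shares exceeded them by 7.36, 1.53, 11.3 and 5.33 percentage points. The mean excess was 6.38 points (exact sign-flip permutation test over 4 libraries, p = 0.125, the smallest it can give). A region exists only where at least 1 of these 4 libraries had a peak. The 4 differences are thus not independent of one another, and the test cannot decide whether the shares differ. With equal numbers of peaks the mean excess was 1.86 points, above 0 in 2 of 4 libraries, and with gene 5′ ends only it was 10.0 points. In mock replicate 2 the excess was -1.76 points for regions with no coding start within 1500 bp, -2.68 with a window of 500 bp and -0.0627 with peaks above the median −log10 q.

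The median fold at noncoding regions was 4.24, 4.88, 5.44 and 5.33 in mock 1, mock 2, siAGO2 1 and siAGO2 2, against 3.83, 4.72, 5.35 and 5.03 at coding regions. It was higher at noncoding regions in 4 of 4 libraries, by 0.239 on average (exact sign-flip permutation test, p = 0.125). The median percentile was 64.5, 56.2, 51.8 and 57.6 against 55.2, 50.7, 52.4 and 51.7. It was higher in 3 of 4 libraries (mean 5.02 points, exact sign-flip permutation test, p = 0.25). The mean was 1.69 points for the 139 regions with no coding start within 1500 bp, 2.46 with the summit in place of the midpoint, 2.70 with peaks above the median −log10 q and 12.1 with gene 5′ ends only. With 4 libraries neither difference can pass 0.05.

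**Figure D2:**
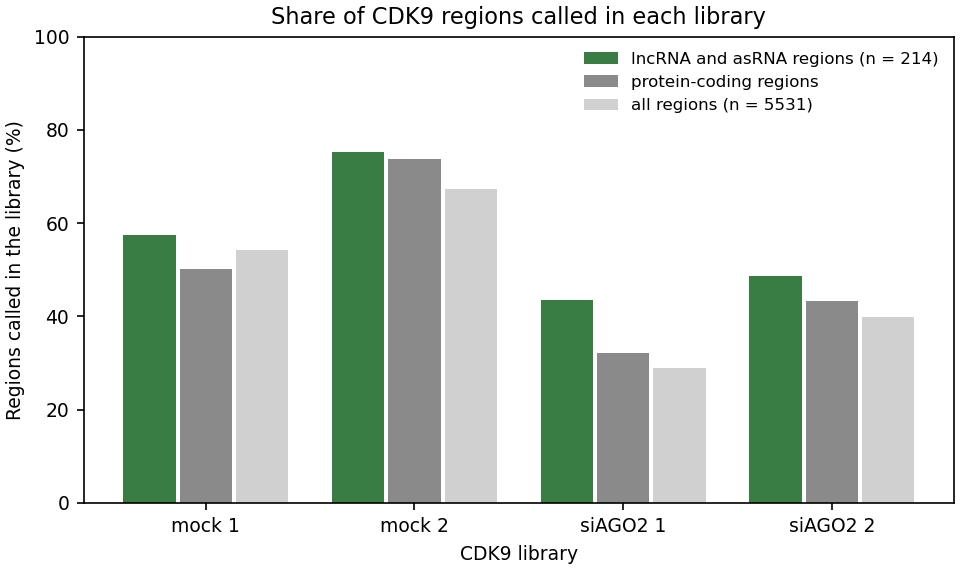
Percent of regions called in each CDK9 library, for the 214 lncRNA and asRNA regions (green), 3917 protein-coding regions (dark grey) and all 5531 regions (light grey). Green bars stand at 57.5, 75.2, 43.5 and 48.6%, above the dark grey bars in 4 of 4 libraries.

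The order of the 59 regions called in all 4 libraries was compared between libraries. Across these regions, Spearman rho of the percentiles was 0.815 between the mock libraries, 0.700 between the siAGO2 libraries and 0.635 to 0.738 between a mock and a siAGO2 library. These points share their libraries and the shape of the lists, and regions are not replicates.

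A region was found at 119 of 1945 lncRNA genes (6.12%), at 54 of 503 asRNA genes (10.7%) and, for coding regions, at 3048 of 13968 protein-coding genes (21.8%). The rule gives a region to its nearest start, so coding genes close to a noncoding start compete for it. A single region was found at 145 of the 173 noncoding genes, 2 at 19, 3 at 5 and 4 at 4 genes (lncRNA:CR32218, lncRNA:CR43334, lncRNA:CR43651 and lncRNA:CR44331).

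Many of the regions were not far from a coding gene. A protein-coding start lay within 1500 bp of 75 regions and within 500 bp of 39, and 24 were nearer the noncoding start by less than 100 bp. The other 139 had no coding start within 1500 bp. Farthest from one among the regions in all 4 libraries were the upstream start region of lncRNA:CR43334 (20355 bp), the region at an internal start of lncRNA:CR44206 (17098 bp) and the start region of lncRNA:CR44526 (16701 bp). Of these 139, 38 were called in all 4 libraries (27.3%), and of the 75, 21 (28%).

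Arm 3L held 52 of the regions (24.3%, against 16.3% of coding regions) and the X chromosome 36 (16.8%, against 23.6%). Arms 2L, 2R and 3R held 31, 45 and 50, and chromosomes 4 and Y none. No test was made on these shares, because neighbouring regions are not independent.

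CDK9 summits were placed relative to the nearest noncoding start. A summit lay within 100 bp of the start in 19.5%, 24.8%, 31.2% and 31.7% of called noncoding regions in mock 1, mock 2, siAGO2 1 and siAGO2 2. At coding regions the shares were 30.0%, 35.5%, 46.4% and 38.6%, higher in 4 of 4 libraries. The median summit lay at 85 and -26 bp from the noncoding start in the mock libraries and at 15 and 53 bp in the siAGO2 libraries, positive values being downstream. The mock libraries themselves fell on both sides of the start, so no shift between groups could be read. Region midpoints lay downstream in 114 regions and upstream in 100. Distance to the start took part in the rule that chose the regions, so these positions are a description.

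**Figure D3:**
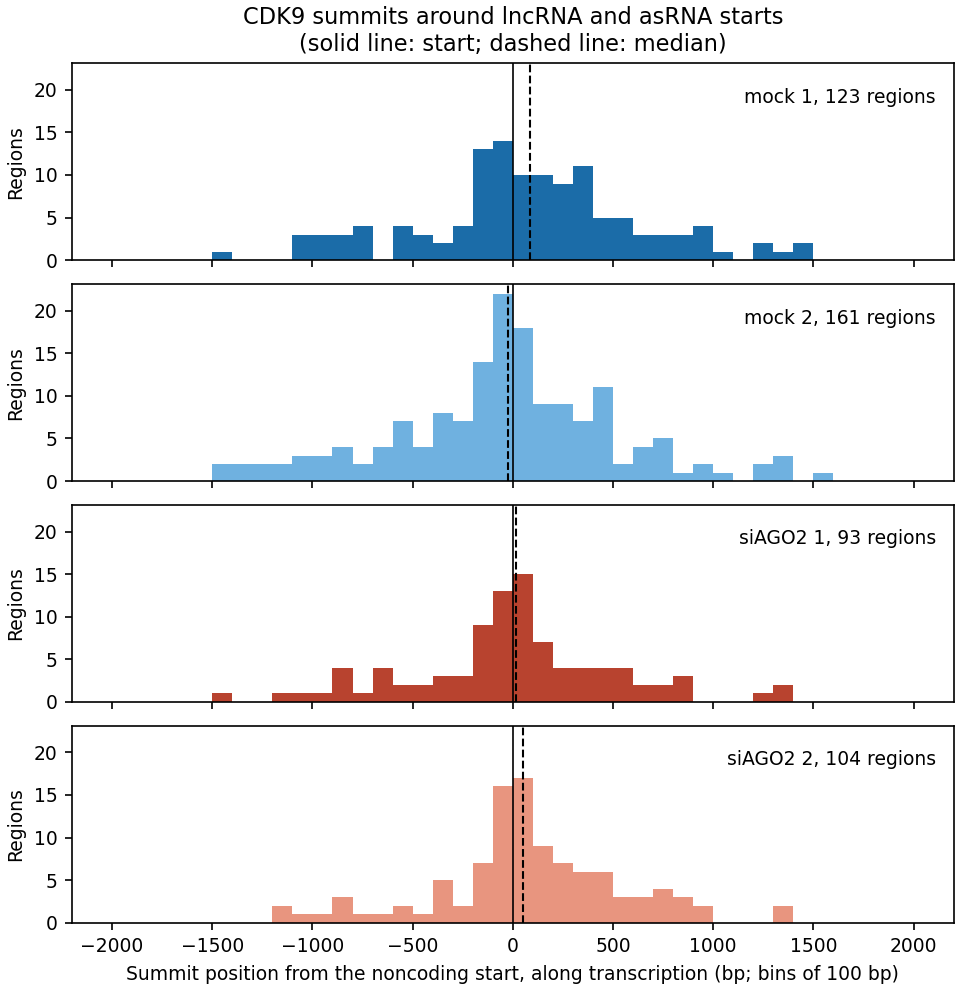
Position of CDK9 summits from the nearest noncoding start along the direction of transcription (bp, bins of 100 bp) in each library, with the number of regions on the vertical axis. The dashed line is the median, at 85, -26, 15 and 53 bp. Regions were kept within 1500 bp on both sides of the start, so a median near it is partly set by that rule.

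By position, 89 regions belonged to genes whose start lies inside a coding gene on the opposite strand (antisense), 15 to genes inside a coding gene on the same strand, 19 to genes divergent from a coding start within 1500 bp, and 91 to intergenic genes. The number called in all 4 libraries was 22 of 89 (24.7%), 4 of 15 (26.7%), 7 of 19 (36.8%) and 26 of 91 (28.6%), beside 18.5% of all regions. By name, 48 of 155 lncRNA regions (31.0%) and 11 of 59 asRNA regions (18.6%) were called in all 4. The asRNA share is close to that of all regions.

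The coding genes that hold antisense or same-strand regions numbered 88. Of these, 43 (48.9%) also had a CDK9 region at a start of their own, beside 21.8% of all protein-coding genes. A gene counted if any of its starts had a region. The 88 genes were not matched to the others for length or number of starts, so the shares are a description. A region near a coding start but nearer a noncoding one was not counted for the coding gene, which can lower both shares. At Mgat1, without a region of its own by this count, the coding start lay 74 bp from the midpoint. Antisense regions in all 4 libraries included, beside those named, genes opposite osa (a SWI/SNF subunit), kis (a CHD chromatin remodeller), Sin3A (a corepressor), CycE (the S phase cyclin) and Cdk4. Values are given for a pair of them that was chosen after their values had been seen. asRNA:bsAS, antisense to bs, the fly serum response factor, had a fold of 7.51 and 8.61 in mock, against 9.98 and 7.01 in siAGO2, so its groups overlapped. asRNA:CR44866, opposite CycE, had 5.58 and 7.87 in mock, against 5.35 and 7.83 in siAGO2. The lowest and the second highest of the latter values were siAGO2.

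The 7 divergent regions in all 4 libraries were at genes that face E(spl)m3-HLH (a Notch target repressor), mamo, jing, Nipped-B (the cohesin loader), Act5C (cytoplasmic actin), CG13631 and C15. The share of divergent regions called was 73.7%, 89.5%, 63.2% and 47.4% in mock 1, mock 2, siAGO2 1 and siAGO2 2. These shares are 14, 17, 12 and 9 of only 19 regions. Over all 5531 regions the shares were 54.2%, 67.3%, 29.0% and 39.8%, also lower in both siAGO2 libraries.

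Noncoding genes with a microRNA inside formed a further group. It was chosen after values had been seen, so its counts are a description. In the annotation 37 lncRNA or asRNA genes hold a microRNA on their strand, and 11 of them had a region, 25 regions in all. Of these, 12 were called in all 4 libraries (48%), against 47 of the other 189 (24.9%) and 18.5% of all regions. The 25 regions were called 13, 22, 16 and 14 times in mock 1, mock 2, siAGO2 1 and siAGO2 2. These are 52%, 88%, 64% and 56%, beside 54.2%, 67.3%, 29.0% and 39.8% of all 5531 regions, so mock 1 was below its all-region share. Regions of 1 gene are neighbours and are not independent.

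lncRNA:CR43334, the host of bantam, a microRNA that promotes growth and blocks cell death, had 4 regions, of which 3 were in all 4 libraries. Bantam lies near the 3′ end of its host, downstream of an upstream and a downstream group of annotated starts. The summit sequences of the upstream start and of the downstream start are printed with that of the mir-275 host, to set them against the strongest sites above. They are windows of the same kind with the same capitals.
lncRNA:CR43334, chr3L:628180-628280, plus strand: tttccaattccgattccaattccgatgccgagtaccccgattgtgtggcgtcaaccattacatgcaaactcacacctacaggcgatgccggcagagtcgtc
lncRNA:CR43334, chr3L:639586-639686, plus strand: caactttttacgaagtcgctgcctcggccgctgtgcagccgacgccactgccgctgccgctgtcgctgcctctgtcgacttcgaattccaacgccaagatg
lncRNA:CR43857, chr2L:7423664-7423764, plus strand: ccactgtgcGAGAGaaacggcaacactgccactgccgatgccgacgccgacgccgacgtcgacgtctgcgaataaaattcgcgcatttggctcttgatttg

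Neither printed bantam host window held GAGAG on either strand, and the mir-275 host window held 1 match. In wider windows of 300 bp around the summit, the downstream bantam host start held 1 match and the upstream one 0. At the downstream start (chr3L:639285-640246) the fold was 7.81 and 10.8 in mock, against 5.67 and 9.94 in siAGO2. The percentile there was 97.1 and 97.0 in mock, against 74.4 and 95.1 in siAGO2. At the upstream start (chr3L:627919-628481) the fold was 3.48 and 7.43 in mock, against 6.55 and 7.29 in siAGO2. Mock replicate 1 was the lowest library there and mock replicate 2 the highest.

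lncRNA:CR43651, the host of mir-14, which limits cell death and fat storage in flies, had 4 regions, of which 2 were in all 4 libraries. Its strongest region had a fold of 5.33 and 10.7 in mock, against 13.3 and 5.85 in siAGO2, so the groups overlapped. lncRNA:CR43857, the host of mir-275, had 1 region, with a fold of 6.25 and 9.18 in mock, against 6.65 and 4.89 in siAGO2. lncRNA:CR43626, the host of mir-282, had 3 regions, 2 of them in all 4 libraries, with a fold at the stronger of 5.11 and 6.88 in mock, against 7.44 and 5.02 in siAGO2.

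lncRNA:CR44206, the host of mir-184, had 3 regions, 2 of them in all 4 libraries. At the region of its 5′ end (chr2R:13344396-13345107) the fold was 4.98 and 5.25 in mock, against 3.29 and 6.80 in siAGO2. At an annotated start inside the gene (chr2R:13337047-13337754) it was 4.09 and 7.20 in mock, against 7.08 and 7.31 in siAGO2. The groups overlapped at both. lncRNA:CR43650, the host of mir-8, the fly member of the miR-200 family, had a region in all 4 libraries with a fold of 3.12 and 8.08 in mock, against 3.42 and 3.53 in siAGO2. lncRNA:CR31044, the host of mir-279 and mir-996, had 1 region, called in all 4 libraries. Its fold was 4.31 and 3.91 in mock, against 4.79 and 4.25 in siAGO2, so the groups overlapped. The hosts of mir-277 and mir-34, mir-276a, mir-10 and mir-iab-8 had no region in all 4 libraries.

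**Figure D4:**
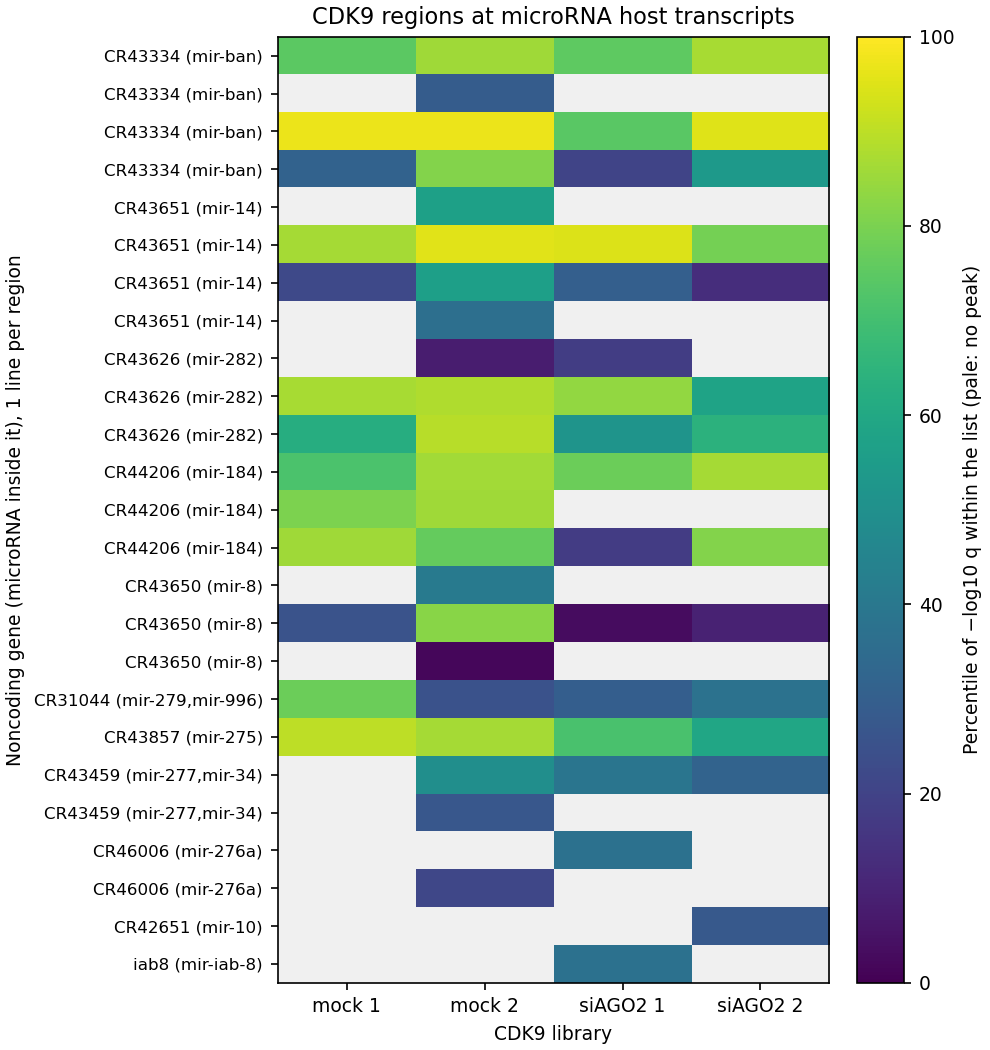
Percentile of −log10 q within each list (colour) for the 25 regions at noncoding genes that hold a microRNA, one line per region and one column per library, pale where no peak was called. The bantam and mir-14 hosts hold the brightest lines, and 12 of the 25 lines have a colour in all 4 columns.

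Of 16 well known long noncoding RNA names searched, 11 were found in the annotation and 2 had a region. lncRNA:Vinr, a virus-induced RNA of the immune response, was called in all 4 libraries, with a percentile of 90.9 and 88.6 in mock, against 88.8 and 82.7 in siAGO2. Its fold was 7.11 and 8.42 in mock, against 10.6 and 8.12 in siAGO2. lncRNA:iab8 of the bithorax complex had a region in siAGO2 replicate 1 alone, at percentile 37.5. lncRNA:let7C, the host of let-7, had a region within 1500 bp in both mock libraries that was nearer a coding start. No region lay within 1500 bp of a start of Hsromega, the heat shock RNA, whose nearest region was 25788 bp away, nor of bxd, flam, yar, sphinx, acal, CRG or noe.

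A mock-only call, made in 2 of 2 mock and 0 of 2 siAGO2 lists, was found for 7 regions (3.27% of the 214), beside 6.07% of all regions. The reverse pattern, siAGO2 alone, was found for 0, beside 0.416% of all regions. With equal numbers of peaks both counts were 2 of 148 noncoding regions (1.35%), beside 77 (2.52%) and 74 (2.42%) of 3055 regions in all. The 7 regions were at lncRNA:CR44206, lncRNA:CR44331, lncRNA:CR45531, lncRNA:CR44034, lncRNA:CR44784, lncRNA:CR44478 and asRNA:CR45686. The 2 strongest were at CR44206, with a fold of 5.33 and 7.47 in mock, and at CR44331, antisense to puc, the phosphatase that limits JNK signalling, with 4.81 and 7.61. Both lay close to a region that was called in siAGO2, at 159 bp and 233 bp. CR44034 lies in InR, the insulin receptor, and CR44478 in Socs36E, an inhibitor of JAK-STAT signalling, with a fold of 3.10 and 4.29, and 3.14 and 3.95. The summits of the 7 regions held between 12 and 29 reads in the mock libraries. Summit sequences are given for the 5 of these regions on arms 2L, 3L and 3R and on the X chromosome, in windows of the same kind, to show mock-only sites beside the strongest ones.
lncRNA:CR44331, chr3R:8112895-8112995, minus strand: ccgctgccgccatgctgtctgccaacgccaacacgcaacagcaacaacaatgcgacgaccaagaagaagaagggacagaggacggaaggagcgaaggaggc
lncRNA:CR45531, chrX:6860246-6860346, plus strand: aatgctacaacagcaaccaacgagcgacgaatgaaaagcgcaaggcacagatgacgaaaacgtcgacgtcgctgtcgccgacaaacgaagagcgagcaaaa
lncRNA:CR44034, chr3R:21616169-21616269, minus strand: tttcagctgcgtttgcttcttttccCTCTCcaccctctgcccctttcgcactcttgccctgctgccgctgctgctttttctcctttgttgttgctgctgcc
lncRNA:CR44478, chr2L:18145737-18145837, plus strand: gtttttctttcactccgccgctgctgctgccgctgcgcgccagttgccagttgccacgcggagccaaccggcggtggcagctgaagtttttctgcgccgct
asRNA:CR45686, chr3L:1806464-1806564, minus strand: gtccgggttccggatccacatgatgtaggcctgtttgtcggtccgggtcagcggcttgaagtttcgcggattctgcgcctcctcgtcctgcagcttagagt
Of these printed windows, that of CR44034 held 1 GAGAG match and the other 4 held none. In wider windows of 300 bp around the summit, CR44331 held 1 match as well. No share over all regions was taken for windows of the printed length.

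For the rank of regions, those called in all 4 libraries were ordered by −log10 q within a library, ranks were turned into normal scores, and siAGO2 was tested against mock with limma over 1022 regions. No region passed (0 of 1022, 0.0%, smallest Benjamini-Hochberg adjusted p = 0.671), with 66 below an unadjusted p of 0.05. Of the 59 noncoding regions, 0 passed and 5 had an unadjusted p below 0.05, with 23 higher (39.0%) and 36 lower in siAGO2, beside 49.6% higher over all 1022. Their median difference was -0.12 normal scores, against -0.01 over all 1022. Without siAGO2 replicate 2 the counts were 29 higher and 30 lower, with a median of -0.000656.

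lncRNA:CR44339 (chr2R:12985648-12986145) had the lowest difference, -1.70 ± 0.354 normal scores (SE, limma adjusted p = 0.671). Its fold was 4.36 and 6.98 in mock, against 3.42 and 3.39 in siAGO2, with both siAGO2 values below both mock values. lncRNA:CR44621 followed with -1.40 ± 0.384 and a fold of 5.68 and 10.9 in mock, against 4.49 and 4.43 in siAGO2. lncRNA:CR44526, with hry, a pair-rule repressor, as its nearest coding gene, had -1.40 ± 0.360 at the region from 8691514 on arm 3L, with a fold of 5.92 and 10.3 in mock, against 4.24 and 4.86 in siAGO2. A second region of the same gene, at its start, had a fold of 5.30 and 8.89 in mock, against 5.51 and 5.64 in siAGO2, where the groups overlapped. The highest differences were 1.41 ± 0.794 at lncRNA:CR43883, 1.20 ± 0.544 at lncRNA:CR44867 and 1.06 ± 0.690 at lncRNA:CR44164. At CR43883 the fold was 2.17 and 6.73 in mock, against 6.53 and 5.43 in siAGO2, so mock replicate 1 alone stood apart there. The difference at CR43883 was 0.13 without mock replicate 1 and 2.68 without mock replicate 2. At CR44867 it was 1.89 and 0.51 in these settings, and at CR44164 2.02 and 0.09, with 0.59 at CR44164 without siAGO2 replicate 1. All 3 highest differences thus rested on single mock libraries.

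**Figure D5:**
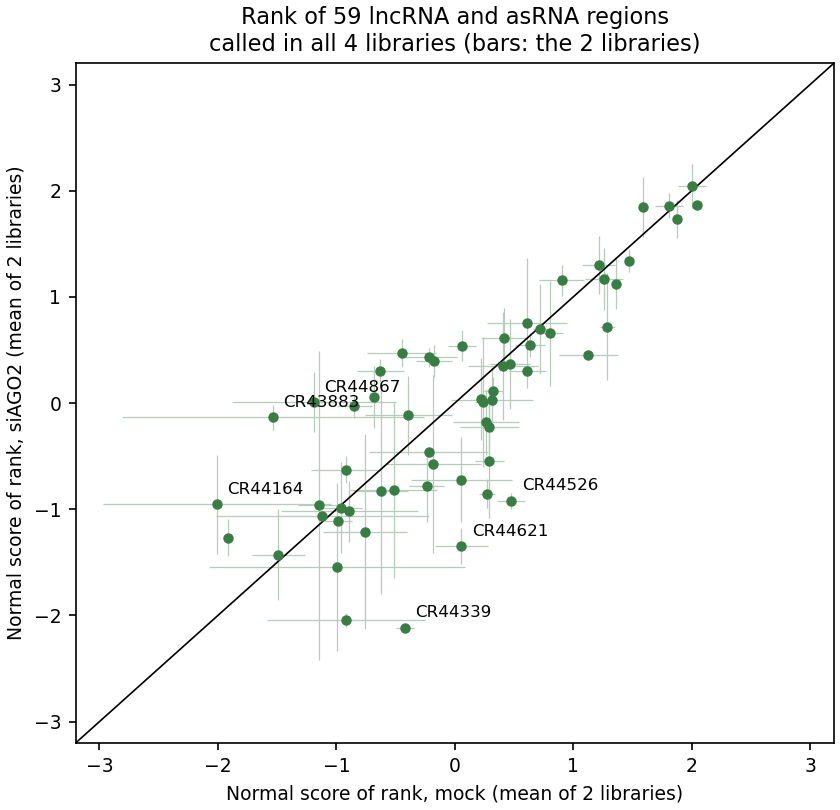
Mean normal score of the rank in the 2 mock libraries (horizontal axis) and the 2 siAGO2 libraries (vertical axis) for the 59 noncoding regions called in all 4 libraries. Bars join the 2 libraries of a group and the line marks equal scores. Points lie along the line, with CR44339 (difference -1.70) farthest below it and CR43883 (1.41) farthest above.

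The GAGAG letters were also counted in windows of 300 bp around the summit of every region, on both strands. They were present in 54.2% of noncoding regions (116 of 214), 46.6% of coding regions and 46.0% of all 5531 regions. Of regions called in all 4 libraries, 69.5% of noncoding (41 of 59) and 68.5% of coding regions held them, and of regions called in 1 library, 40.0% and 37.5%. By position, 17 of 19 divergent, 10 of 15 same-strand, 52 of 91 intergenic and 37 of 89 antisense regions held them. CACACACA on either strand was found in 20.6% of noncoding regions, against 12.3% of coding and 12.3% of all regions. TATAAA was found in 12.6% (all regions 10.8%), TATCGATA, the letters bound by the factor DREF, in 1.87% (3.56%), the initiator letters TCAGTT in 14.0% (15.0%) and TCAGTC in 12.1% (10.3%), and GGTCACACT, the Motif 1 letters, in 0.935% (1.65%). GCTGCTG, searched after the sequences had been seen, was present in 17.8% against 25.1% of all regions, and in 0 of 19 divergent regions. None of these is a test, and no match says only that the letters are not in the window.

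Just inside the limit of 1500 bp lay a region at asRNA:CR45798, 1497 bp from its start, called in mock replicate 1 alone. Just outside lay a region 1502 bp from lncRNA:CR44588 that was called in all 4 libraries, with a percentile of 89.7 and 86.0 in mock, against 14.7 and 33.7 in siAGO2.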

How the data were processed

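CDK9 ChIP-seq was analysed for 2 mock and 2 siAGO2 libraries of Kc167 cells. The authors trimmed reads with cutadapt, aligned them to dm6 with Bowtie2, removed reads under a mapping quality of 20 and PCR duplicates, and called punctate peaks with MACS2 2.1.1.20160309 per replicate. The submitters' processing notes name cutadapt 1.10 and Picard 2.11.0. The MACS2 settings for CDK9 were not given in the sources used here. Each deposited peak has a fold enrichment (ratio of reads at the summit to local background), a −log10 p-value and −log10 q-value, a score (the whole part of 10 times −log10 q) and a summit.

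From these lists, regions were merged and set against Ensembl release 115 gene models for dm6, with coordinates counted from 1. Depth was recovered as the whole number of reads and the background that give the deposited fold and −log10 p (pseudocount of 1) within 0.0005 in −log10 p, which succeeded for 100% of peaks. Intervals and read numbers cover counting error only. A region's value is its strongest peak of a library, and its percentile is that of −log10 q in the whole list. Groups were compared by exact two-sided permutation tests, and noncoding with coding regions by exact sign-flip tests over libraries. Ranks were fitted with limma 3.58.1 in R 4.3.3 with Benjamini-Hochberg adjustment, other steps used Python 3.11.15 and scipy 1.17.1. Merging, nearest starts, recovered reads and the rank fit were tested on simulated data.

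Regions named are the 10 of highest mean percentile in all 4 libraries, those called in 1 group only, the listed noncoding RNAs, the 3 largest rank differences in each direction, the 3 farthest from a coding start and those nearest the distance limit. The members, lists and rules were chosen with earlier results of these data known. MicroRNA hosts, asRNA:bsAS and asRNA:CR44866 were added after values were seen. Sequences come from the RefSeq copy of the same assembly. Sequence from arm 2R was not printed. Alternatives tried were equal numbers of top peaks, peaks above the median −log10 q, a window of 500 bp, gene 5′ ends only, other noncoding starts as competitors, the summit in place of the midpoint, each library left out, a replicate block, other rank scores and, chosen after seeing the data, regions with no coding start within 1500 bp. Same-numbered replicates did not deviate together (correlation 0.00101 over 1022 regions).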

Additional observations from a re-analysis of the deposited data

How the results depend on the processing

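With equal numbers of top peaks the ratio of called regions became 1.09 and the difference in the share called 4.73 points. This is the opposite direction to 0.694 and -20.3 points, and it rested mainly on siAGO2 1. Other settings kept that direction. Regions called in both mock libraries alone numbered 2 with equal numbers of peaks and 15 with peaks above the median −log10 q. They numbered 4 with a window of 500 bp, and 17 and 22 without siAGO2 replicates 1 and 2. Without mock replicate 1 or 2 a call in the remaining mock library was enough, and the counts were 54 and 34. Those in both siAGO2 libraries alone numbered 2 with equal numbers of peaks, and 0 and 5 without mock replicates 1 and 2. Without siAGO2 replicate 1 or 2 a call in the remaining siAGO2 library was enough, and the counts were 10 and 11. The share called in all libraries ranged from 33.8% to 36.5% with a library left out. The number of regions was 115 with peaks above the median −log10 q, 142 with a window of 500 bp and 139 with no coding start within 1500 bp. Counts move with the number of peaks that enter and with the number of libraries, and beyond that the cause was not tested. Over all results and settings, 159 values kept their direction and call or moved little, 18 moved and 2 reversed.

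Replicate numbers are shared between groups, but same-numbered libraries did not deviate together, so only the number is common to them. Under the replicate block, the ratio was 0.699 and the difference -20.3 points (exact sign-flip permutation test, p = 0.5, the smallest it can give), and limma called 2 of 1022 regions in place of 0 (smallest adjusted p = 0.008014), none of them at a noncoding start. Both siAGO2 libraries were the shallower ones, and the part of depth in the counts was not tested.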
